A study of Neurospora crassa with 6 samples.

Results

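Transcripts of 5 genes of the unfolded protein response and of protein folding in the endoplasmic reticulum (ER) were compared between a control strain and a period-2 (prd-2) mutant of the filamentous fungus Neurospora crassa. The genes were chosen by locus tag, 5 of the 9730 in the table, as ire-1 (NCU02202), hac-1 (NCU01856), grp78 (NCU03982), a protein disulfide isomerase (PDI, NCU09223) and calnexin (NCU09265). The rule itself uses no measured value, although it was written with earlier results of these data known. The reference gene table (assembly NC12) gives NCU03982 as grp78 and NCU02202 as stk-14, a serine/threonine kinase symbol. It holds no symbol for the other 3 loci. Their names here come with the rule and were not checked against gene products or sequences. All 5 genes passed the filter on low values.

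The control was strain 328-4, of genotype ras-1bd and mating type A. The mutant was strain 1810, which also carries ras-1bd and mating type A and in which prd-2 is disrupted by the barR marker. The bd allele, shared by both strains, makes the rhythm of spore formation visible in culture. Each strain was grown as 3 shaken liquid cultures in Bird medium containing 1.8% glucose, kept at 25 °C under constant light and harvested after 48 h. Every genotype is 1 strain, so any strain difference besides prd-2 cannot be told apart from the mutation, and p-values reflect how much cultures of the same strain varied.

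Proteins that enter the secretory pathway fold in the ER with the help of lumenal chaperones. When unfolded proteins accumulate there, the membrane kinase and nuclease IRE1 cuts the mRNA of a bZIP transcription factor, HAC1 in fungi, and the spliced form is translated into a factor that raises the genes of chaperones, foldases and glycosylation enzymes. Filamentous fungi such as N. crassa secrete large amounts of enzymes and cell wall proteins, and this response accompanies high secretion. The deposited values are 1 FPKM value per gene (fragments counted per kilobase of transcript and adjusted for library size), so spliced and unspliced hac-1 mRNA could not be told apart.

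Summed FPKM lay between 657467 and 688885 in the 6 cultures. The prd-2 locus (NCU01019) averaged 26.2 ± 1.31 FPKM in control cultures against 6.78 ± 0.784 FPKM in mutant ones (SD, n = 3 each; limma adjusted p = 1.41e-05), so the values followed the genotype labels. Its annotated span overlaps that of its neighbour NCU01021. Among genes that mark conidia, the asexual spores, con-13 was listed at or near 0, between 0 and 0.0676 FPKM, in all cultures. Of the other 4, con-6 was called higher in the mutant, con-8 and con-10 lower, and eas was not called. The call of con-10 was kept in 9 of the 14 alternative fits described below, those of con-6 and con-8 in all 14. The summed level of the 5 conidial genes spanned 1795 to 1968 FPKM in control cultures and 1339 to 3171 FPKM in mutant cultures, the highest being mutant replicate 1, in which eas reached 2382 FPKM. The part of these genes in the results below was not tested.

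All 5 genes were lower in the mutant, by modest amounts. The largest differences were those of PDI, at 77.5% of its control mean, and hac-1, at 78.3%, and the smallest was that of calnexin, at 90.9%. The values of the 2 strains did not overlap for any of the 5 genes. At an adjusted p under 0.05 all 5 were called lower, where 23.8% of the 7797 tested genes were called lower and 24% higher, so that 47.8% were called in all. Values of the strains did not overlap for 59.8% of tested genes, and the mutant was the lower for 29.3%. The median change of the 5 genes was -0.24 log2 units, beside 0.01 over all tested genes. Of the tested genes with a mean of at least 50 FPKM, as all 5 genes have, 21.1% were called lower and 35.4% higher, with a median change of 0.09 log2 units. The count of 5 is a description of this list.

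**Figure D1:**
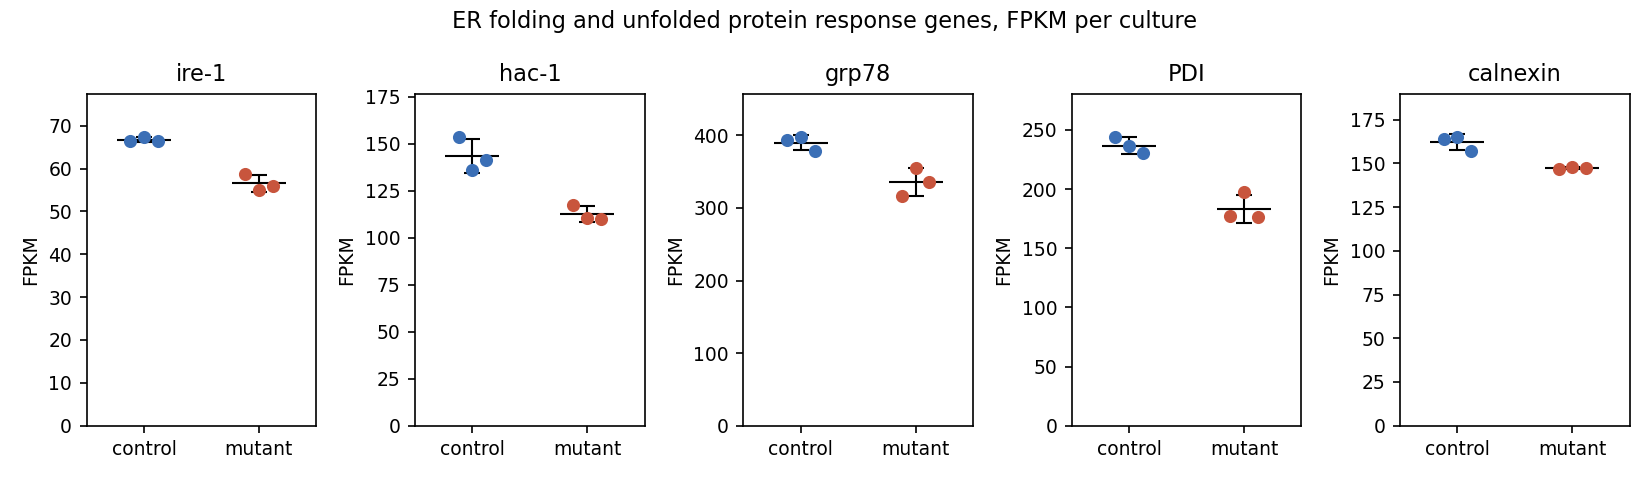
FPKM of ire-1, hac-1, grp78, PDI and calnexin in each of the 3 control and 3 mutant cultures; points are cultures, in order of replicate number from left to right, and the horizontal line and whiskers give the mean and SD of the strain. In every panel the 3 mutant values lie below the 3 control values, with the narrowest gap relative to the level for calnexin.

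IRE-1 is the sensor of unfolded proteins in the ER membrane. Its transcript measured 66.4, 67.4 and 66.5 FPKM in control replicates 1, 2 and 3, and 58.6, 54.9 and 56.0 FPKM in mutant replicates 1, 2 and 3. The controls were close together, with a coefficient of variation of 0.835%, and every mutant culture was lower. The means were 66.8 ± 0.557 and 56.5 ± 1.93 FPKM (SD, n = 3 each). By limma this was a log2 change of -0.24 (SE 0.049, adjusted p = 0.00608). It was the least abundant of the 5 transcripts, at rank 1628 of 7797 by control mean and rank 1967 by mutant mean.

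HAC-1 is the bZIP factor whose mRNA IRE-1 processes. The transcript measured 153.6, 136.1 and 141.1 FPKM in control replicates 1 to 3, and 117.3, 110.4 and 109.7 FPKM in mutant replicates 1 to 3. Control replicate 1 stood above the other 2 controls, and the highest mutant culture was still below the lowest control. The means were 143.6 ± 9.01 and 112.5 ± 4.22 FPKM (SD, n = 3 each), which limma gave as a log2 change of -0.35 (SE 0.063, adjusted p = 0.00337). Without control replicate 1 the log2 fold change was -0.30, still called (limma adjusted p = 0.00659).

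GRP78 (BiP) is the Hsp70 chaperone of the ER lumen and the textbook target gene of the unfolded protein response. It was the most abundant of the 5, at rank 290 of 7797 by control mean and rank 350 by mutant mean. It measured 394.0, 398.0 and 377.8 FPKM in control replicates 1 to 3 and 316.0, 354.6 and 335.8 FPKM in mutant replicates 1 to 3. The mutant cultures spread more widely than the controls, and the highest mutant value was below the lowest control value. The means were 389.9 ± 10.7 and 335.5 ± 19.3 FPKM (SD, n = 3 each). By limma this was a log2 change of -0.22 (SE 0.061, adjusted p = 0.0223). The call was lost when 1 of 3 cultures was left out, namely control replicate 2 (limma adjusted p = 0.0837), mutant replicate 1 (limma adjusted p = 0.0578) or mutant replicate 3 (limma adjusted p = 0.0543).

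Protein disulfide isomerase forms and rearranges disulfide bonds in newly made secretory proteins. Its transcript measured 244.1, 236.0 and 230.1 FPKM in control replicates 1 to 3 and 177.1, 197.2 and 176.3 FPKM in mutant replicates 1 to 3. Mutant replicate 2 stood above the other 2 mutants, which were nearly equal, and the strains were well apart. The means were 236.8 ± 7.04 and 183.5 ± 11.8 FPKM (SD, n = 3 each). The log2 change of -0.37 was the largest of the 5 (SE 0.062, limma adjusted p = 0.00261).

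Calnexin is a membrane-bound lectin that holds glycoproteins in the ER until they are folded. It measured 164.2, 165.2 and 157.2 FPKM in control replicates 1 to 3 and 147.0, 148.0 and 147.6 FPKM in mutant replicates 1 to 3. The mutants were almost identical, with a coefficient of variation of 0.368%, and lay just below the lowest control. The means were 162.2 ± 4.33 and 147.5 ± 0.543 FPKM (SD, n = 3 each). By limma this was a log2 change of -0.14 (SE 0.047, adjusted p = 0.0490). This call stood at the threshold: it was kept in 5 of 14 alternatives, and it was lost in each of the 6 fits that left out a culture (limma adjusted p from 0.0597 to 0.158).

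**Figure D2:**
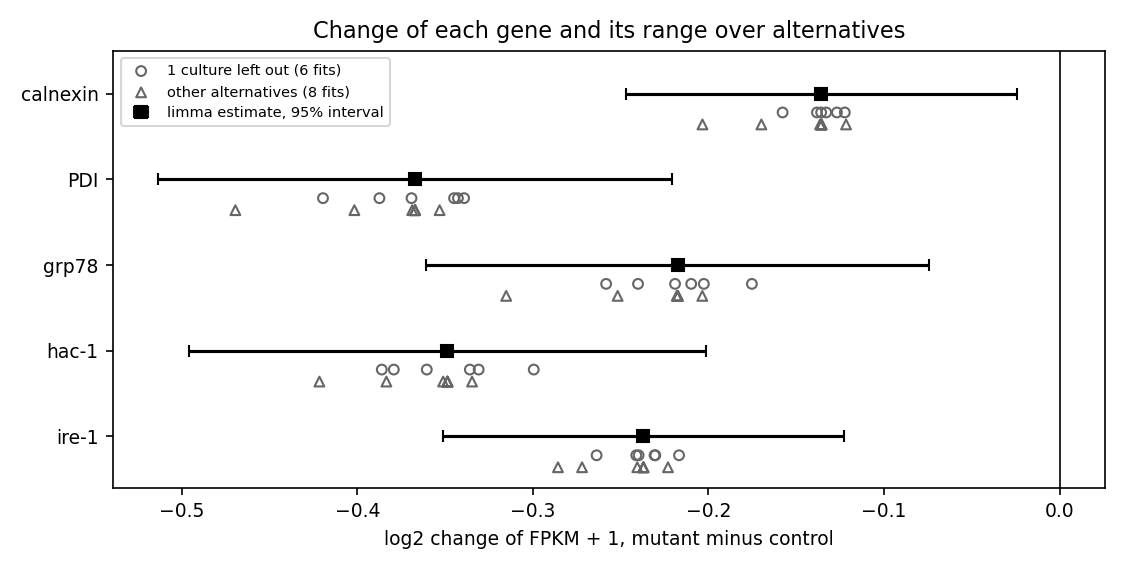
Log2 change of FPKM + 1, mutant minus control, for each of the 5 genes; squares with bars are the limma estimate and its 95% interval, circles are the 6 fits with 1 culture omitted, and triangles are the 8 other alternatives. Every estimate lies below 0, from -0.47 to -0.34 for PDI and from -0.20 to -0.12 for calnexin over the alternatives.

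The size of these changes was ordinary for this comparison. The genes called lower had a median change of -0.51 log2 units, which is further from 0 than that of any of the 5, and 416 of them were lower by at least 2-fold. PDI ranked 2360, hac-1 2498, ire-1 3582, grp78 3843 and calnexin 5080 of 7797 by the size of the change. The 95% intervals of the log2 changes were -0.51 to -0.22 for PDI, -0.50 to -0.20 for hac-1, -0.35 to -0.12 for ire-1, -0.36 to -0.07 for grp78 and -0.25 to -0.02 for calnexin. The intervals of the 5 genes overlap each other.

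**Figure D3:**
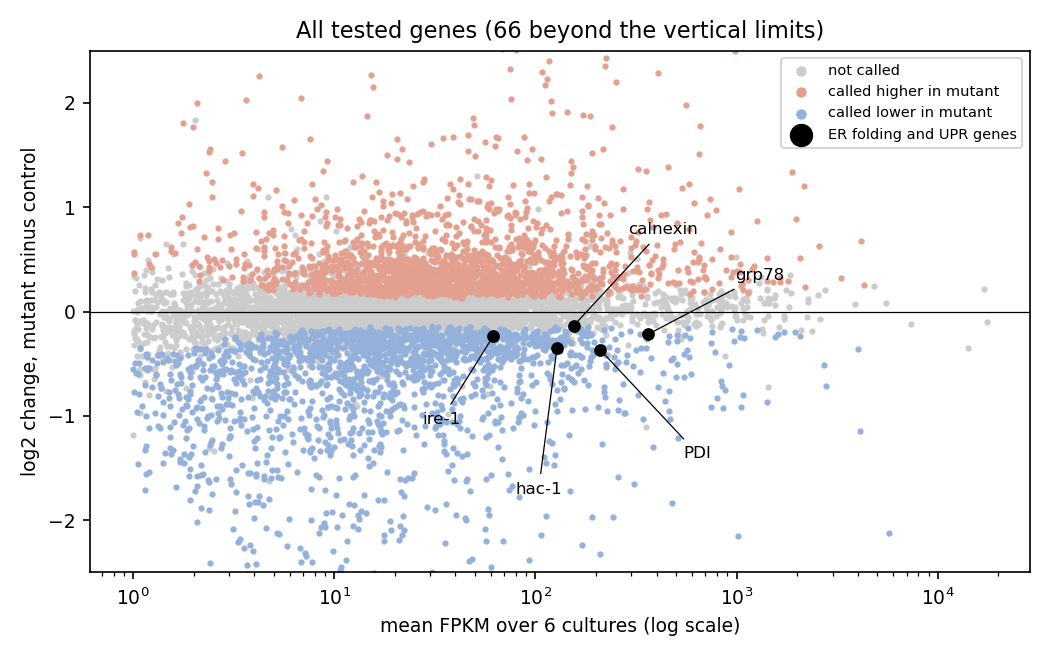
Log2 change, mutant minus control, against mean FPKM over the 6 cultures (log scale) for the 7797 tested genes, coloured by call, with the 5 genes in black; 66 genes lie beyond the vertical limits. The 5 genes sit just below the line of no change, among the more abundant transcripts and at the inner edge of the genes called lower.

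FPKM is scaled to transcript length, so levels can be set beside each other between genes. In the controls the order was grp78, PDI, calnexin, hac-1 and ire-1, and the values of neighbours in that order did not overlap: the lowest calnexin value, 157.2 FPKM, was above the highest hac-1 value, 153.6 FPKM. The order was the same in the mutants, and the gap between calnexin and hac-1 was wider there, with calnexin at 147.0 FPKM or more and hac-1 at 117.3 FPKM or less. Together the 5 genes made up 0.148% to 0.152% of summed FPKM in a control culture and 0.121% to 0.126% in a mutant culture. The folding factors grp78, PDI and calnexin alone summed to 765 to 802 FPKM per control culture and to 640.1 to 699.9 FPKM per mutant culture, ranges that do not overlap.

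Ratios within a culture show how far the 5 genes moved together, since the scaling of a library cancels. The ratio of calnexin to grp78 was nearly constant in the controls, at 0.417, 0.415 and 0.416 in replicates 1 to 3, and was 0.465, 0.417 and 0.439 in mutant replicates 1 to 3. The lowest mutant ratio was barely above the controls. The ratio of PDI to calnexin was 1.49, 1.43 and 1.46 in the controls and 1.21, 1.33 and 1.19 in the mutants. PDI was thus lower relative to calnexin in every mutant culture, with no overlap.

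The ratio of PDI to grp78 was 0.620, 0.593 and 0.609 in control replicates 1 to 3 and 0.561, 0.556 and 0.525 in mutant replicates 1 to 3, again without overlap. The ratio of hac-1 to ire-1 was 2.31, 2.02 and 2.12 in the controls and between 1.96 and 2.01 in the mutants. Here the lowest control and the highest mutant differed by less than the spread among the controls. Over all 10 pairs of the 5 genes, the within-culture log2 difference of 6 pairs did not overlap between the strains. For single genes, 59.8% of those tested did not overlap, and no such share was computed for pairs of other genes. Among the 10 pairs, the largest shift between strains was that of PDI against calnexin, by -0.23 log2 units, followed by hac-1 against calnexin, by -0.21. The shift of a pair equals the difference between the log2 changes of its genes, so this order follows from the changes given above. An exact two-sided permutation test of 3 cultures against 3 cannot go below p = 0.1, which those 6 pairs reached, and with Benjamini-Hochberg adjustment over the 10 pairs the smallest p was 0.167. No pair passed the threshold of 0.05, which this design does not allow.

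**Figure D4:**
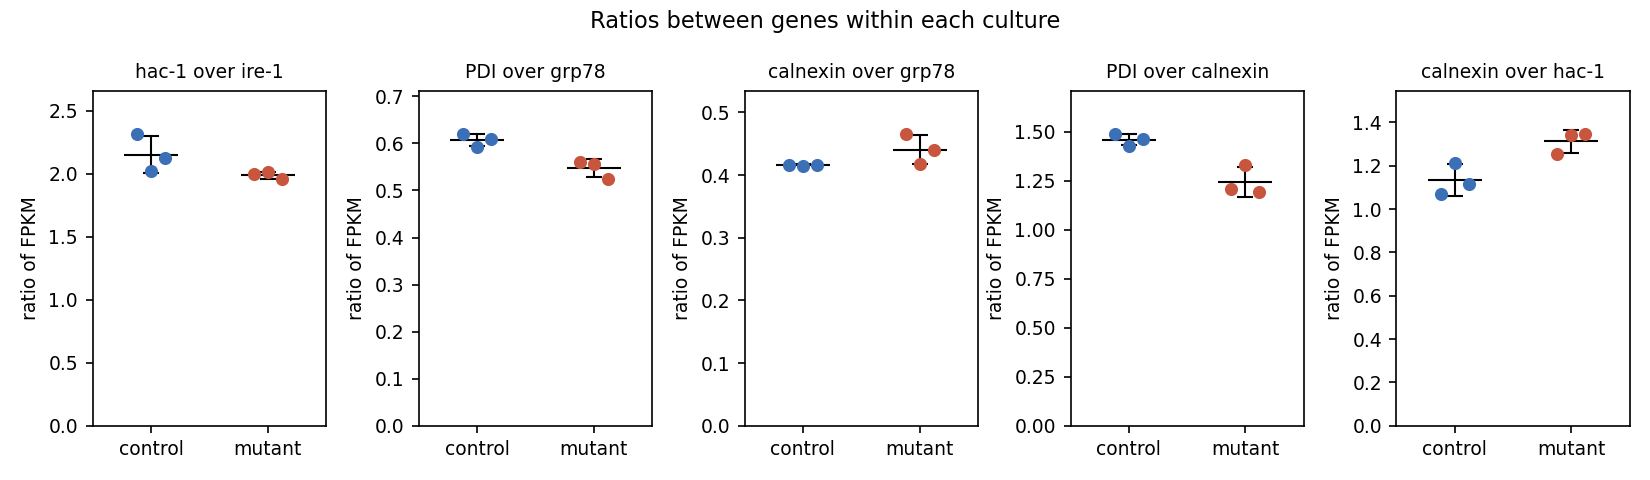
Ratio of FPKM between named pairs of genes in each culture, with the mean and SD of each strain; points are cultures in order of replicate number. The calnexin to grp78 ratio is tight in the controls at 0.415 to 0.417, and PDI relative to calnexin lies at 1.43 to 1.49 for control cultures and at 1.19 to 1.33 for mutant cultures.

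Within a strain the genes did not share 1 order of cultures. In the mutants grp78, PDI and calnexin were highest in replicate 2, PDI by 0.10 log2 units above its strain mean, whereas ire-1 and hac-1 were highest in replicate 1, by 0.05 and 0.06. In the controls grp78, PDI and calnexin were lowest in replicate 3, by 0.05, 0.04 and 0.04 log2 units below their means. The largest deviations from a strain mean were that of PDI in mutant replicate 2 and that of hac-1 in control replicate 1, each about 0.10 log2 units.

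The gene order in NC12 shows no annotated span that overlaps any of the 5 genes, so for them the unstated treatment of strand and of shared fragments concerns no annotated neighbour. Of the 10 immediate neighbours 9 were tested. Among these, 3 were called higher and 0 lower at the limma adjusted p of 0.05, beside 24% and 23.8% of all tested genes. The counts of neighbours were likewise 3 and 0 at an unadjusted limma p under 0.05. NCU02203, next to ire-1, was higher by 0.55 log2 units (SE 0.110, limma adjusted p = 0.0056), and NCU03981, next to grp78, by 0.27 (SE 0.050, limma adjusted p = 0.0040).

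For each of the 5 genes, the genes with a symbol whose centred profile over the 6 cultures was most like it were sought among 1054 candidates, by the root mean square difference of log2 values. The nearest to ire-1 were vad-2, stk-5 and mob1-2, at 0.024 to 0.034 log2 units. The nearest to hac-1 were dcl-2, a Dicer gene, pod-2 and the cell wall sensor gene wsc-1, at 0.033 to 0.046. Of these, dcl-2 was near the floor, at means of 2.71 FPKM in control and 1.90 FPKM in mutant cultures. Its log2 change was -0.36, but -0.49 with a pseudocount of 0.1. With quantile normalization it was -0.07 and not called (limma adjusted p = 0.570), so its likeness to hac-1 depends on the processing. With that normalization pod-2 was not called either, at -0.20 (limma adjusted p = 0.0535), beside -0.42 for hac-1, whereas wsc-1 was still called, at -0.51. Next to grp78 came asf-1, a histone chaperone gene, the proteasome gene pcb-5 and aab-1, at 0.022 to 0.042. PDI had ff-7, the MAP kinase gene mak-1 and rdi-1 as nearest profiles, at 0.031 to 0.043. For calnexin these were bdp-2, eat-6 and set-3, at 0.031 to 0.032, none of which was called. Among the 5 themselves, the closest profiles were grp78 and calnexin, at 0.061, and the least alike were PDI and calnexin, at 0.127. The likeness describes 6 cultures of 2 strains and is largely set by the strain difference.

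Other genes of the secretory route were compared by symbol. The patterns drawn up for ER genes matched cot-5 alone besides grp78, because the reference table holds no gene products. Lists were therefore drawn up from its symbols after the files were seen. They hold 19 genes, all tested, of which 3 were called lower, 4 higher and 12 neither. Over all tested genes 23.8% were called lower and 24% higher. The 19 genes had a median change of -0.06 log2 units. Their split depended on the scaling: with quantile normalization 7 were lower and 2 higher.

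The gene erp38, which encodes a further member of the protein disulfide isomerase family, was lower by more than any of the 5 genes. It measured 193.8, 176.4 and 166.3 FPKM in control replicates 1 to 3 and 112.4, 129.9 and 124.4 FPKM in mutant replicates 1 to 3. The strains were far apart, at means of 178.8 ± 13.9 and 122.3 ± 8.96 FPKM (SD, n = 3 each), which limma gave as a log2 change of -0.54 (SE 0.079, adjusted p = 0.00133). It was called lower in all 14 alternatives.

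Of 5 genes for mannose supply and for the assembly and removal of N-glycans, 1 was called higher and 4 were not called. The called gene was dpm, for the synthesis of dolichol phosphate mannose, which rose by 0.22 log2 units (SE 0.055, limma adjusted p = 0.0147). That call was lost with quantile normalization (log2 fold change 0.10, limma adjusted p = 0.232) and without control or mutant replicate 2. The mannosyltransferase gene cot-5 was not called, at -0.08 (SE 0.070, limma adjusted p = 0.393). Of 6 genes for glycosylphosphatidylinositol anchors, com rose by 0.27 (SE 0.067, limma adjusted p = 0.0135), gpig-1 rose by 0.17 (SE 0.059, limma adjusted p = 0.0456) and gpip-2 fell by 0.26 (SE 0.062, limma adjusted p = 0.0112). The call of gpig-1 was kept in 5 of 14 alternatives.

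Among 5 genes of vesicle traffic, sec5 of the exocyst rose by 0.25 log2 units (SE 0.047, limma adjusted p = 0.00433), and the other 4 were not called. Of the calcium pumps, pmr-1 of the Golgi fell by 0.26 (SE 0.051, limma adjusted p = 0.0052), and nca-1 was not called (log2 fold change -0.09, SE 0.050, limma adjusted p = 0.162).

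Misfolded ER proteins are exported and degraded by the proteasome. Of 29 proteasome genes with a symbol, 2 were called lower and 1 higher, beside 23.8% and 24% of all tested genes. The other 26 were not called, and the median change of the 29 was -0.05 log2 units. The largest fall was that of pcb-4, a gene of the core particle, by 0.36 (SE 0.084, limma adjusted p = 0.0101), and the 1 rise was that of rpn-1, by 0.18 (SE 0.063, limma adjusted p = 0.0497), which was called in 4 of 14 alternatives. With quantile normalization 8 proteasome genes were called lower, on the TPM scale 5, and rpn-1 was called in neither. Over all 14 alternatives the number called lower ran from 1 to 8. The other gene called lower, pcb-5, was called in 6 of 14 alternatives.

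Genes with an hsp symbol, most of them chaperones of the cytosol and mitochondria, had mostly changes of the other sign. Of 10 such genes, 6 were called higher and 0 lower at the limma adjusted p of 0.05, beside 24% and 23.8% of all tested genes. Of tested genes with a mean of at least 50 FPKM, 35.4% were called higher. The other 4 hsp genes were not called, and the median change of the 10 was 0.19 log2 units. At an unadjusted limma p under 0.05 the counts were 7 higher and 0 lower. With control replicate 2 left out, 3 were called higher. The largest rise was that of hsp70-5, by 0.52 log2 units (SE 0.123, limma adjusted p = 0.0113). The cytosolic Hsp70 gene hsp70-1, a relative of grp78 added to the list of named genes after its values were seen, measured 653.4, 594.7 and 577.9 FPKM in control replicates 1 to 3 and 738.9, 793.6 and 758.3 FPKM in mutant replicates 1 to 3. All its mutant values lay above all control values, and the log2 change was 0.33 (SE 0.067, limma adjusted p = 0.00589), beside -0.22 for grp78. In all 14 alternatives the estimate was above 0 for hsp70-1 and below 0 for grp78. The difference between the ER genes and the hsp genes as lists was not tested.

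**Figure D5:**
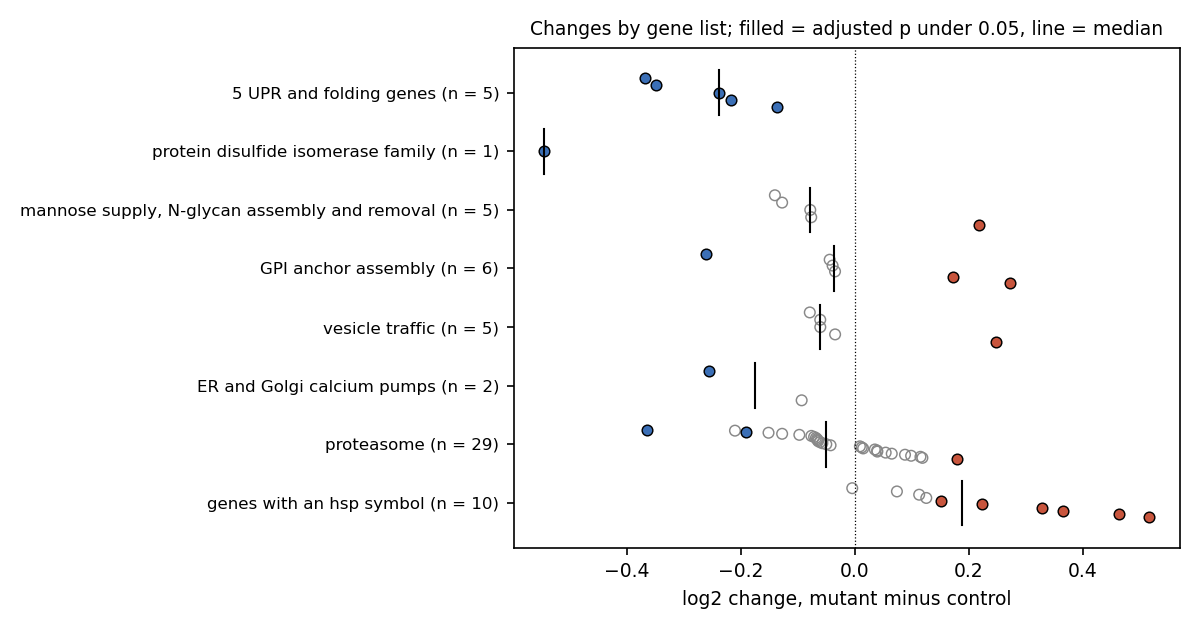
Log2 change, mutant minus control, of the 5 genes and of genes in 7 symbol lists; each point is a gene, filled blue where called lower, filled red where called higher and open where not called, and the vertical line is the median of the list. The 5 genes and erp38 lie below 0, the proteasome genes cluster around 0, and 6 of the 10 hsp genes are called higher.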

How the data were processed

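Oligo(dT)-selected RNA from 6 cultures was sequenced as directional paired-end libraries with reads of 150 bp, per the labels' protocols. The deposited values are FPKM computed by the authors, each culture having its own column. The submitters' processing notes name STAR and Cuffnorm, without versions or roles. The genome build, annotation, filters, scaling between libraries and use of strand are not given in the sources used here. FPKM hides the number of fragments, so the depth is unknown and no counting interval is given.

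Values were transformed as log2(FPKM + 1), which understates changes of low genes. The 7797 of 9730 genes whose FPKM averaged 1 or more across the 6 cultures were fitted in R 4.3.3 with limma 3.58.1 (lmFit, then trended eBayes). Their p-values were adjusted together by the Benjamini-Hochberg method and called at 0.05. The code was tested on simulated data. Symbols came from the RefSeq gene table of NC12, which held 9729 of the locus tags and a symbol for 1118 of its genes. No sequence of the genes was used here.

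Named genes were the 5 members, prd-2, the conidial markers, the largest called rise and fall without overlap in each list, other called genes of short lists, and the 3 nearest profiles of each called member. Members and lists were chosen with earlier results of these data known. Alternatives were quantile normalization, median centring, rescaling to equal totals (TPM scale), a pseudocount of 0.1, a minimum mean of 5 FPKM or none, an untrended eBayes, replicate number as a block, and 6 fits that each left out a culture.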

Additional observations from a re-analysis of the deposited data

How the results depend on the processing

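The changes of all 5 genes kept their sign in all 14 alternatives. Those of ire-1, hac-1 and PDI were also called in each. Calnexin was no longer called with median centring (-0.12 log2 units), without the variance trend (-0.14) or with the replicate block (-0.14, limma adjusted p = 0.0873), and the cause was not tested. Leaving out 1 culture at a time, grp78 ran from -0.26 to -0.18, calnexin from -0.16 to -0.12, the number of the 5 genes called from 3 to 4, and the secretory list genes called higher from 2 to 4. With quantile normalization 2 secretory list genes were called higher and 7 lower. The numbers of all genes called ranged from 2892 to 3814. For the 32 other named genes, 407 of 447 values kept their call and direction and 39 lost the call. The change of eas, 0.52, reversed to -0.074 without mutant replicate 1 and was at most 0.88, without mutant replicate 3; the first follows from the 2382 FPKM of mutant replicate 1. Replicate numbers come from the titles. Deviations of same-numbered cultures from their strain means correlated at -0.10, -0.17 and 0.07 across genes for numbers 1 to 3. No culture correlated best with its own number. Deviations from a mean of 3 cultures are tied to each other, so these values cannot decide whether the numbers pair the cultures. With the replicate block 4 of the 5 genes and 3363 genes in all were called, against 3725 without it. Depth is unknown, so precision rests on the spread between cultures.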
